A study of Mus musculus with 9 samples.

Results

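The endothelial identity genes are 36 genes chosen by name as markers of the cells that line vessels: genes of endothelium in general and genes that mark its capillary, endocardial, arterial, venous and lymphatic kinds. All 36 were found by symbol among the 13192 genes of a read count table from the mouse heart apex. The AAV-Osm group held 5 libraries from male wild-type C57BL/6J mice. At 10 weeks of age these mice received 1e+11 viral particles of AAV-Osm, an adeno-associated virus (AAV) that carries oncostatin M, by injection into the muscle of the right gastrocnemius. The AAV-Null group held 4 libraries from male wild-type C57BL/6J mice of that age, given the same dose of AAV-Null at the same site, so both groups carried a virus. Hearts were taken 12 weeks later, and by the design text 5 samples a group had been submitted for sequencing. The promoter of the transgene is not named in the sources used here, and Osm itself was not analysed here, so that check of the labels was not made. Whether each library is a separate mouse is not stated, and the p-values cover only the spread among these libraries.

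Endothelial cells form the inner lining of vessels and of the heart chambers. Their identity is kept by transcription factors of the ETS family (Erg, Fli1, Ets1) and of the SOX F group (Sox7, Sox17, Sox18), which drive genes of cell junctions and surface receptors, while Notch signalling sets arterial endothelium apart from venous. Heart muscle is dense in capillaries, whose endothelium passes oxygen and fatty acids to the muscle cells. Oncostatin M belongs to the interleukin-6 cytokine family, and endothelial cells carry its receptor.

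Total counts were 11841106 to 24551980 in AAV-Osm libraries and 18594875 to 30625134 in AAV-Null libraries. The lowest count of any endothelial identity gene in any library was 42, for Hey1 in AAV-Osm 3. Some libraries of a group lay far closer than others. By a chi-square over genes, per degree of freedom, AAV-Osm 2 and AAV-Osm 3 stood at 9.68, against 30.1 to 85.9 for the other AAV-Osm pairs, and AAV-Null 1 and AAV-Null 2 at 6.52, against 45.0 to 98.1 for the other AAV-Null pairs. Both pairs differed beyond sampling noise, which does not show whether the libraries of a pair came from separate mice. Each library was counted on its own. Closeness also crossed the groups. AAV-Osm 4 stood at 17.3 with AAV-Null 1 and 18.6 with AAV-Null 2, against 30.1 with AAV-Osm 3, the closest of its own group. With each library left out in turn, those of the close pairs included, 0 members passed the test described next.

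Levels of different genes were compared per kilobase of summed exon length. Over the 9 libraries the mean level ran from 1.19 CPM per kilobase for Sox17 to 86.2 CPM per kilobase for Ly6c1 (CPM, counts scaled by library size and TMM factor). Egfl7 stood at 83.8, Cav1 at 37.5, Pecam1 at 35.04 and Cldn5 at 34.7 CPM per kilobase. The markers that define endothelium (Pecam1, Cdh5, Tie1, Cldn5, Esam and Egfl7) were all present in each library. Summed over the 36 genes, CPM ran from 1437 to 1673 in AAV-Osm and from 1519 to 1756 in AAV-Null libraries, so the groups overlapped.

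None of the 36 endothelial identity genes passed an adjusted p under 0.05 (edgeR's quasi-likelihood test, Benjamini-Hochberg over all 13192 genes): 0 rose and 0 fell in AAV-Osm hearts, and the smallest adjusted p was 0.622. Of all genes 0.121% passed, 0.0834% higher and 0.0379% lower. DESeq2 and limma-voom likewise called 0 members. At an unadjusted edgeR p under 0.05 stood 3 members (8.33%), Rgcc and Car4 lower and Clec14a higher, beside 5.97% of all genes (2.89% higher and 3.09% lower). The groups did not overlap for 2 members (5.56%), Esam and Nos3, both lower in AAV-Osm hearts, beside 2.28% of all genes (1.05% higher and 1.23% lower). Counts of members this small are read against those shares and carry no test of their own. In whole heart apex RNA, fewer endothelial cells and less of a transcript per endothelial cell cannot be told apart.

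The log2 fold change (AAV-Osm over AAV-Null) was negative for 25 members and positive for 11, with a median of -0.079 beside 0.0092 over all genes. Scaled to the summed level of the second pan-endothelial list (34 other endothelial genes), which moved the median of all genes up too, 10 members were negative and the median was 0.074, beside 0.16 over all genes. Relative to the median of all genes the members' median was -0.083 in that scaling and -0.088 in the other. Rescaling shifts every gene by nearly the same amount, so these values lie close by construction and are no check of the median. Signs of single members moved with the libraries used. Leaving out 1 library at a time turned the sign of 17 of the 36, and the sign of the other 19 held in all 9 such fits. The intervals show which sizes of change remain possible. For 31 members the 95% interval lay within a 2-fold change in either direction, as it did for 88% of all genes, and for 23 it lay within 1.5-fold. The 5 members with a wider reach were Sox7, Sox18, Rgcc, Npr3 and Hey1. Limma-voom with sample quality weights departed most from these counts: it called 1 member, Rgcc, lower, and put 14 members lower and 2 higher at an unadjusted p under 0.05. Over all genes that fit also called far more, 79 higher and 91 lower, beside 11 and 5 in edgeR. The share of all genes at an unadjusted p under 0.05 was not taken for that fit. Its counts of members therefore have no background here and cannot be set against the shares from edgeR.

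**Figure D1:**
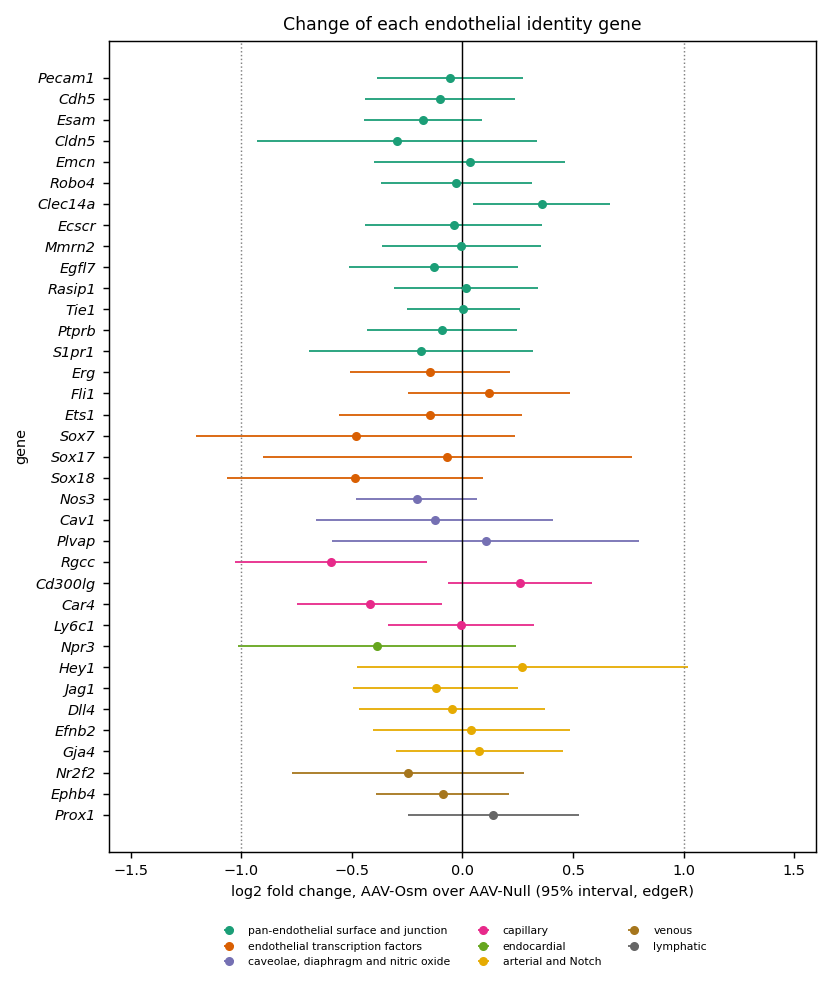
Log2 fold change of each of the 36 endothelial identity genes, AAV-Osm over AAV-Null (x axis, edgeR, 5 and 4 libraries), with its 95% interval; colours give the role and dotted lines mark a 2-fold change. The intervals of Rgcc, Car4 and Clec14a leave out 0, and 31 of 36 lie within the dotted lines.

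The start regions of Rgcc, Car4 and Clec14a are shown because these members had the smallest p-values and because ETS factors are known drivers of endothelial genes. Each runs 5′ to 3′ on the gene's own strand, from 250 bases before the start to 50 after it (RefSeq, GRCm38.p6): chr14:79301586-79301885 on the minus strand, chr11:84957504-84957803 on the plus strand and chr12:58269209-58269508 on the minus strand. Capitals mark GGAAG, a longer form of the ETS core GGAA, or its reverse complement CTTCC. Stretches of GGAA or TTCC outside this longer form are not marked or counted.
Rgcc: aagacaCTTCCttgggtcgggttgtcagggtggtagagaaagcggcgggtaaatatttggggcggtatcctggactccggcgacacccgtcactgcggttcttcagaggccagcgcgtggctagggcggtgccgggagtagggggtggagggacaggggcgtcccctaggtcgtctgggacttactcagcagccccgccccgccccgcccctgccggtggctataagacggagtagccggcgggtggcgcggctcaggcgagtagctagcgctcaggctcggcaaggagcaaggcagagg
Car4: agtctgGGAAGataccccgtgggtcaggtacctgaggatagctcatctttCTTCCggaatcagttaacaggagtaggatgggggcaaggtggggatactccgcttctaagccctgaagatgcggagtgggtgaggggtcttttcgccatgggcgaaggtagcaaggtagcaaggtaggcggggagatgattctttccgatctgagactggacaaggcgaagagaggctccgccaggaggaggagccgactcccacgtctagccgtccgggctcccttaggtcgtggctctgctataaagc
Clec14a: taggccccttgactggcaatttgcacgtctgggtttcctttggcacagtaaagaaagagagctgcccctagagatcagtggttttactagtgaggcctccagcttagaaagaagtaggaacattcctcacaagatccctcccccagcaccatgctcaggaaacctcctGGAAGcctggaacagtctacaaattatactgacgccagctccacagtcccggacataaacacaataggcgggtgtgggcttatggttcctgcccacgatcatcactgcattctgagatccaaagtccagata
The longer form had 1 match in the Rgcc window, 2 in the Car4 window and 1 in the Clec14a window. Of the 36 members 20 had an entry in the promoter table, with 27 windows in all. GGAAG or CTTCC stood in 21 of these windows (77.8%) and in 71.4% of the 32851 windows of all genes, so most promoters hold these letters. The SOX core ACAAT (either strand) stood in 7 member windows (25.9%), that of Clec14a among them, beside 10192 of the 32851 windows of all genes. The GATA core GATAA (either strand) stood in 4 member windows (14.8%), beside 25.4% of all. A match describes letters, not binding.

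The capillary members were Rgcc, Car4, Cd300lg and Ly6c1, of which 0 passed. Rgcc encodes a cell cycle regulator that is abundant in capillary endothelium (chromosome 14, 79288750 to 79301635, minus strand, mm10). It had 16.1, 10.5, 9.04, 13.1 and 13.7 CPM in AAV-Osm 1 to 5, against 20.6, 24.7, 15.8 and 14.6 CPM in AAV-Null 1 to 4. AAV-Null 1 and 2, the pair that lay so close, stood above every AAV-Osm library, but AAV-Osm 1 lay above AAV-Null 3 and 4. The means were 12.5 ± 2.78 CPM in AAV-Osm and 18.9 ± 4.64 CPM in AAV-Null hearts (SD, n = 5 and 4), with a 95% interval of -1.03 to -0.16 on the log2 scale (log2 fold change -0.60, standard error 0.20, edgeR adjusted p = 0.622). Without AAV-Null 2 the log2 fold change was -0.44, with quality weights in limma-voom it was -0.90 (adjusted p = 0.0271), and it was negative in all 22 alternatives tried, with adjusted p between 0.0271 and 0.9998.

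Car4, a carbonic anhydrase anchored on the luminal face of capillary endothelium (chromosome 11, 84957754 to 84966054, plus strand), had 15.4, 13.5, 10.9, 15.2 and 11.5 CPM in AAV-Osm 1 to 5, against 19.8, 18.2, 15.2 and 17.9 CPM in AAV-Null 1 to 4. AAV-Null 3 alone lay within the AAV-Osm range. Its means were 13.3 ± 2.08 CPM in AAV-Osm and 17.8 ± 1.90 CPM in AAV-Null hearts (SD, n = 5 and 4), and the 95% interval was -0.75 to -0.092 (log2 fold change -0.42, standard error 0.15, edgeR adjusted p = 0.665). The other capillary members did not share these values: Cd300lg had a positive log2 fold change and Ly6c1 was close to level. Cd300lg, a surface protein of capillaries that binds lymphocytes, averaged 77.8 ± 11.9 CPM in AAV-Osm and 65.1 ± 9.73 CPM in AAV-Null hearts (log2 fold change 0.26, standard error 0.15, edgeR adjusted p = 0.909). Ly6c1, a surface antigen of capillary endothelium and of some blood cells, averaged 142 ± 27.3 CPM in AAV-Osm and 142 ± 15.4 CPM in AAV-Null hearts (log2 fold change -0.0057, standard error 0.15, edgeR adjusted p = 0.999). Ly6c1 has a close paralog, Ly6c2, so its counts are uncertain. Summed, the 4 capillary genes stood at 245 ± 28.8 CPM in AAV-Osm and 244 ± 29.8 CPM in AAV-Null hearts (SD, n = 5 and 4).

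Clec14a, a C-type lectin of endothelial junctions that binds Mmrn2 (chromosome 12, 58264720 to 58269258, minus strand), had 19.8, 15.7, 14.4, 16.2 and 19.99 CPM in AAV-Osm 1 to 5, against 13.5, 13.5, 12.5 and 14.4 CPM in AAV-Null 1 to 4. Only AAV-Osm 3 fell below any AAV-Null library, where it lay just under AAV-Null 4. Its means were 17.2 ± 2.55 CPM in AAV-Osm and 13.5 ± 0.755 CPM in AAV-Null hearts (SD, n = 5 and 4), and the 95% interval was 0.047 to 0.67 (log2 fold change 0.36, standard error 0.14, edgeR adjusted p = 0.768). Mmrn2, the matrix protein multimerin that Clec14a binds, averaged 86.9 ± 12.5 CPM in AAV-Osm and 87.2 ± 19.996 CPM in AAV-Null hearts (log2 fold change -0.0050, standard error 0.17, edgeR adjusted p = 0.999).

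**Figure D2:**
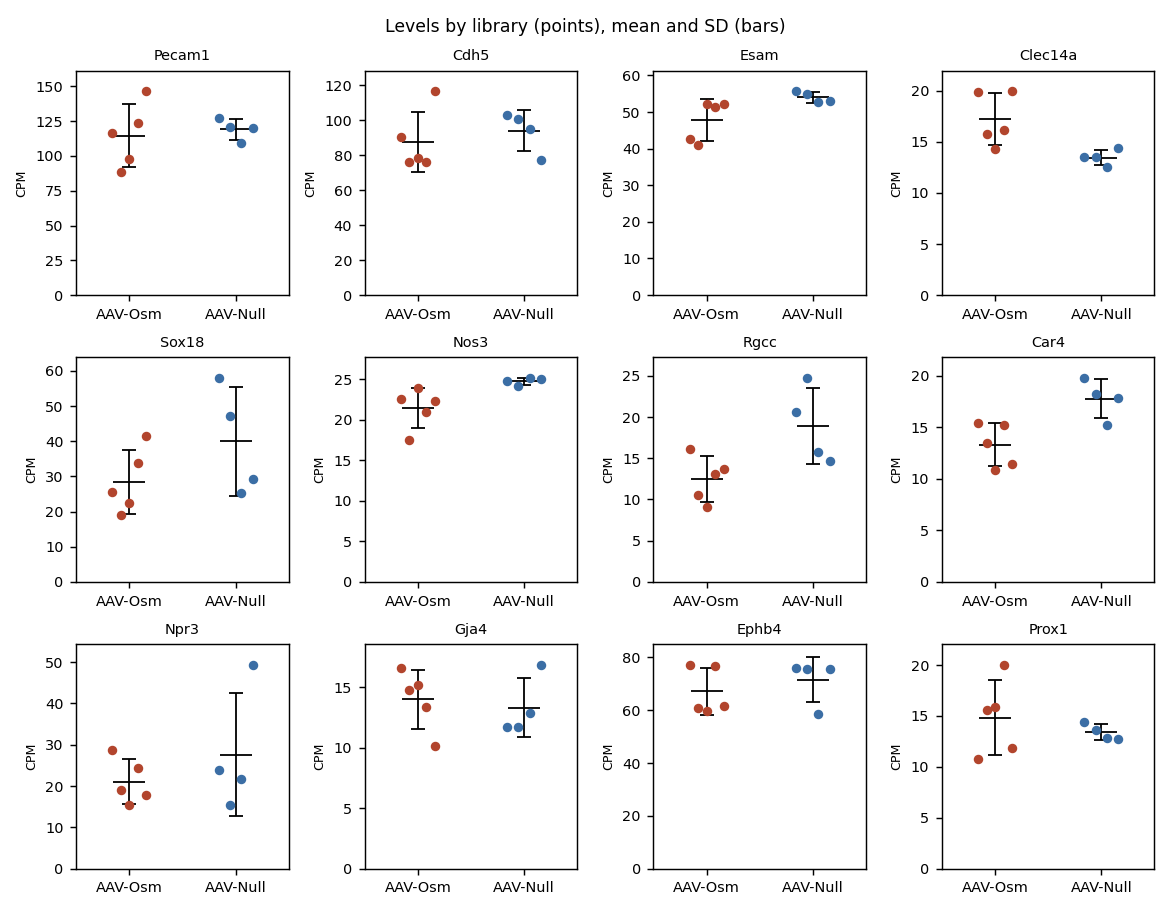
CPM (y axis, from 0) of 12 endothelial identity genes in each AAV-Osm library (left, 5 points) and AAV-Null library (right, 4 points); bars give mean and SD. The groups do not overlap for Esam and Nos3, and Clec14a overlaps only between AAV-Osm 3 and AAV-Null 4.

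Besides Clec14a, 13 members belong to the surface and junctions of all endothelium, and none of these had an unadjusted p under 0.05 in edgeR. Pecam1, the adhesion molecule CD31 (chromosome 11, 106654213 to 106715281, minus strand), had 116, 88.7, 97.9, 124 and 147 CPM in AAV-Osm 1 to 5, against 128, 121, 109 and 120.1 CPM in AAV-Null 1 to 4. The AAV-Osm libraries reached beyond the AAV-Null range on both sides, with a 95% interval of -0.39 to 0.27 (log2 fold change -0.057, standard error 0.15, edgeR adjusted p = 0.987). Cdh5, the VE-cadherin of adherens junctions (chromosome 8, 104101625 to 104144502, plus strand), had 90.4, 76.2, 78.3, 76.3 and 117 CPM in AAV-Osm 1 to 5, against 103, 101, 94.8 and 77.1 CPM in AAV-Null 1 to 4. AAV-Osm 5 was the highest library of all and AAV-Null 4 lay among the low AAV-Osm libraries, with a 95% interval of -0.44 to 0.24 (log2 fold change -0.10, standard error 0.16, edgeR adjusted p = 0.976).

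Esam, another adhesion molecule of endothelial junctions (chromosome 9, 37528089 to 37538319, plus strand), had 42.5, 40.9, 52.2, 51.5 and 52.1 CPM in AAV-Osm 1 to 5, against 55.7, 55.0, 52.7 and 53.0 CPM in AAV-Null 1 to 4. The highest AAV-Osm library lay just under the lowest AAV-Null library, and AAV-Osm 1 and 2 stood well below the rest. The difference was small, with a 95% interval of -0.45 to 0.090 (log2 fold change -0.18, standard error 0.12, edgeR adjusted p = 0.934). Tie1, a receptor kinase that partners the angiopoietin receptor, varied least of the 36 members, its highest library being 1.24 times its lowest. It averaged 81.1 ± 5.76 CPM in AAV-Osm and 81.0 ± 6.83 CPM in AAV-Null hearts, and its 95% interval was -0.25 to 0.26. Cldn5, the tight junction claudin of endothelium, varied most among the surface and junction genes, 2.94 times between its lowest and highest library. Its values were 30.2, 48.0, 70.6, 50.1 and 24.6 CPM in AAV-Osm 1 to 5, against 39.2, 38.3, 69.2 and 72.3 CPM in AAV-Null 1 to 4 (log2 fold change -0.30, standard error 0.29, edgeR adjusted p = 0.955). With 1 library left out it ran from -0.52 (without AAV-Osm 3) to -0.13 (without AAV-Null 4). It was positive without AAV-Null 3 and 4 (0.20), without AAV-Null 4 and AAV-Osm 5 (0.020) and with quality weights in limma-voom (0.13). The remaining 8 genes of this role (Emcn, Robo4, Ecscr, Mmrn2, Egfl7, Rasip1, Ptprb and S1pr1) had log2 fold changes between -0.19 for S1pr1, a sphingosine phosphate receptor, and 0.032 for Emcn, the sialomucin endomucin. Leaving out 1 library turned the sign for all of these but Ptprb and S1pr1, within -0.35 to 0.18 over the 8 genes, and it also turned that of Tie1 (-0.030 to 0.065).

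Of the 6 transcription factors 0 passed, and 5 had a negative log2 fold change. Sox18, the most abundant of them per kilobase at 20.7 CPM per kilobase (chromosome 2, 181669837 to 181671640, minus strand), had 25.7, 18.9, 22.6, 33.8 and 41.5 CPM in AAV-Osm 1 to 5, against 58.0, 47.2, 25.2 and 29.3 CPM in AAV-Null 1 to 4. AAV-Null 1 and 2 were again above every AAV-Osm library, and AAV-Null 3 and 4 lay inside the AAV-Osm range, with a 95% interval of -1.07 to 0.094 (log2 fold change -0.49, standard error 0.27, edgeR adjusted p = 0.888). For Sox7 the log2 fold change was -0.48 (standard error 0.33, edgeR adjusted p = 0.934), and for Sox17, which also specifies arteries, it was -0.069 (standard error 0.39, edgeR adjusted p = 0.994). The SOX F values moved by over 1.5 times with the libraries used. Without AAV-Null 4 and AAV-Osm 5 they were -0.79 for Sox18, -1.003 for Sox7 and -0.75 for Sox17, and leaving out AAV-Null 3 and 4 gave -0.88, -0.90 and -0.47 in the same order, with 0 members called in both fits. With 1 library left out, Sox18 ran from -0.66 (without AAV-Osm 5) to -0.25 (without AAV-Null 1), Sox7 from -0.83 (without AAV-Osm 5) to -0.31 (without AAV-Null 1) and Sox17 from -0.52 (without AAV-Osm 5) to 0.15 (without AAV-Null 1). The direction of Sox17 thus turned, being positive in 5 of the 9 fits, while Sox7 and Sox18 stayed negative. The ETS factors lay closer to level than Sox7 and Sox18, though not than Sox17 at -0.069 with all libraries. Erg was at -0.15 (standard error 0.17, edgeR adjusted p = 0.961), Ets1 at -0.15 (standard error 0.19, edgeR adjusted p = 0.970) and Fli1 at 0.12 (standard error 0.17, edgeR adjusted p = 0.973). Leaving out 1 library, these ran from -0.25 to 0.026 for Erg, -0.27 to -0.024 for Ets1 and 0.0093 to 0.22 for Fli1.

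Nos3, the nitric oxide synthase of endothelium (chromosome 5, 24364819 to 24384474, plus strand), was the other member without overlap. It had 22.6, 17.5, 23.9, 21.0 and 22.4 CPM in AAV-Osm 1 to 5, against 24.7, 24.2, 25.2 and 24.99 CPM in AAV-Null 1 to 4. Every AAV-Osm library lay below every AAV-Null library, by a small step, and the coefficient of variation was 11.4% in AAV-Osm and 1.74% in AAV-Null libraries. The 95% interval was -0.48 to 0.067 (log2 fold change -0.21, standard error 0.13, edgeR adjusted p = 0.923). Exons of Nos3 overlap those of Atg9b on the other strand, and with the strand setting of the counting unknown its counts are uncertain. Cav1, the coat protein of caveolae, had a log2 difference of -0.13 (standard error 0.25, edgeR adjusted p = 0.981). With 1 library left out it ran from -0.35 (without AAV-Osm 5) to 0.00 (without AAV-Osm 3), and quality weights in limma-voom gave -0.54. Plvap, which forms the diaphragms of caveolae and fenestrae, was at 12.3 to 25.03 CPM in AAV-Osm libraries, against 9.96 to 15.6 CPM in AAV-Null 1 to 3 and 33.9 CPM in AAV-Null 4. Its log2 fold change was 0.10 (standard error 0.32, edgeR adjusted p = 0.987) with all libraries, and with 1 library left out it ran from -0.094 (without AAV-Null 2) to 0.61 (without AAV-Null 4).

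The arterial and Notch members had log2 fold changes between -0.12 for the Notch ligand Jag1 and 0.27 for the Notch target Hey1, whose 95% interval was wide (-0.48 to 1.02). With 1 library left out Hey1 ran from -0.084 (without AAV-Osm 5) to 0.44 (without AAV-Osm 3), and it was 0.12 without AAV-Null 4. Jag1 ran from -0.19 to -0.044 in these fits. Gja4, a connexin of arterial endothelium (chromosome 4, 127311420 to 127314039, minus strand), had 16.6, 14.8, 15.2, 13.4 and 10.2 CPM in AAV-Osm 1 to 5, against 11.7, 11.7, 12.9 and 16.9 CPM in AAV-Null 1 to 4. High and low libraries stood in both groups (log2 fold change 0.077, standard error 0.17, edgeR adjusted p = 0.983). The Notch ligand Dll4 was at -0.048 (standard error 0.19, edgeR adjusted p = 0.989) and the ephrin Efnb2 at 0.040 (standard error 0.21, edgeR adjusted p = 0.994). With 1 library left out, Gja4 ran from 0.0095 to 0.21, Dll4 from -0.19 to 0.032 and Efnb2 from -0.13 to 0.14.

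On the venous side, Ephb4, the receptor for Efnb2 (chromosome 5, 137350109 to 137374522, plus strand), had 77.2, 60.6, 59.9, 76.7 and 61.7 CPM in AAV-Osm 1 to 5, against 76.1, 75.7, 58.6 and 75.5 CPM in AAV-Null 1 to 4. Its libraries fell at a high and a low level in both groups, with AAV-Osm 1 and 4 and AAV-Null 1, 2 and 4 at the high one (log2 fold change -0.088, standard error 0.14, edgeR adjusted p = 0.976). Nr2f2, a venous factor that holds back Notch signalling, was at -0.25 (standard error 0.24, edgeR adjusted p = 0.953), and ran from -0.48 (without AAV-Osm 4) to -0.11 (without AAV-Null 1) with 1 library left out. Prox1, the master factor of lymphatic endothelium, which heart muscle cells also express (chromosome 1, 190121777 to 190170680, minus strand), had 10.8, 15.6, 15.9, 20.02 and 11.9 CPM in AAV-Osm 1 to 5, against 14.4, 13.6, 12.9 and 12.7 CPM in AAV-Null 1 to 4. The AAV-Osm libraries lay on both sides of the AAV-Null range (log2 fold change 0.14, standard error 0.18, edgeR adjusted p = 0.969). The value rested in part on AAV-Osm 4, with a range from 0.011 (without AAV-Osm 4) to 0.24 (without AAV-Osm 1).

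Npr3, the clearance receptor for natriuretic peptides and the endocardial marker of the set (chromosome 15, 11839896 to 11907371, minus strand), had 28.7, 19.0, 15.4, 24.4 and 17.9 CPM in AAV-Osm 1 to 5, against 23.8, 15.5, 21.7 and 49.3 CPM in AAV-Null 1 to 4. AAV-Null 4 stood far above all other libraries, and the 95% interval was -1.02 to 0.24 (log2 fold change -0.39, standard error 0.29, edgeR adjusted p = 0.934). Without AAV-Null 4 the log2 fold change turned to 0.051. In the GENCODE M21 annotation, exons of 10 of the 36 members overlap those of another gene (Ecscr, Egfl7, Rasip1, Sox17, Nos3, Npr3, Dll4, Nr2f2, Ephb4 and Prox1), so their counts may hold reads of a neighbour.

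Libraries differed along lines that crossed the groups. For 8 members (Cdh5, Ets1, Sox7, Sox17, Sox18, Cav1, Dll4 and Efnb2) the highest 3 libraries were AAV-Osm 5, AAV-Null 1 and AAV-Null 2, which is 22.2% of the members and 8.02% of all genes, a description noticed in these data. Sox7 had 14.8 CPM in AAV-Osm 5 and 15.1 and 14.9 CPM in AAV-Null 1 and 2, beside 4.30 to 7.84 CPM in AAV-Osm 1 to 4 and 7.86 and 7.09 CPM in AAV-Null 3 and 4. Sox17 had 9.78 CPM in AAV-Osm 5, 7.17 and 6.09 CPM in AAV-Null 1 and 2, and 2.54 to 5.05 CPM in the other libraries. Cldn5, Robo4, Mmrn2, Egfl7, Erg and Gja4 ran the other way, with their lowest values in AAV-Osm 5. AAV-Osm 5 thus held the highest value for 9 members and the lowest for 6. AAV-Null 4 held the highest value for 9 and the lowest for 2, and AAV-Osm 2 the highest for 0 and the lowest for 10. Heart muscle markers (16 of 16 in the table) summed to 114445 and 116433 CPM in AAV-Osm 1 and 5 and to 114537 and 118983 CPM in AAV-Null 1 and 2, and to 131137 to 150537 CPM in the other libraries. Their part in the members' levels was not tested.

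**Figure D3:**
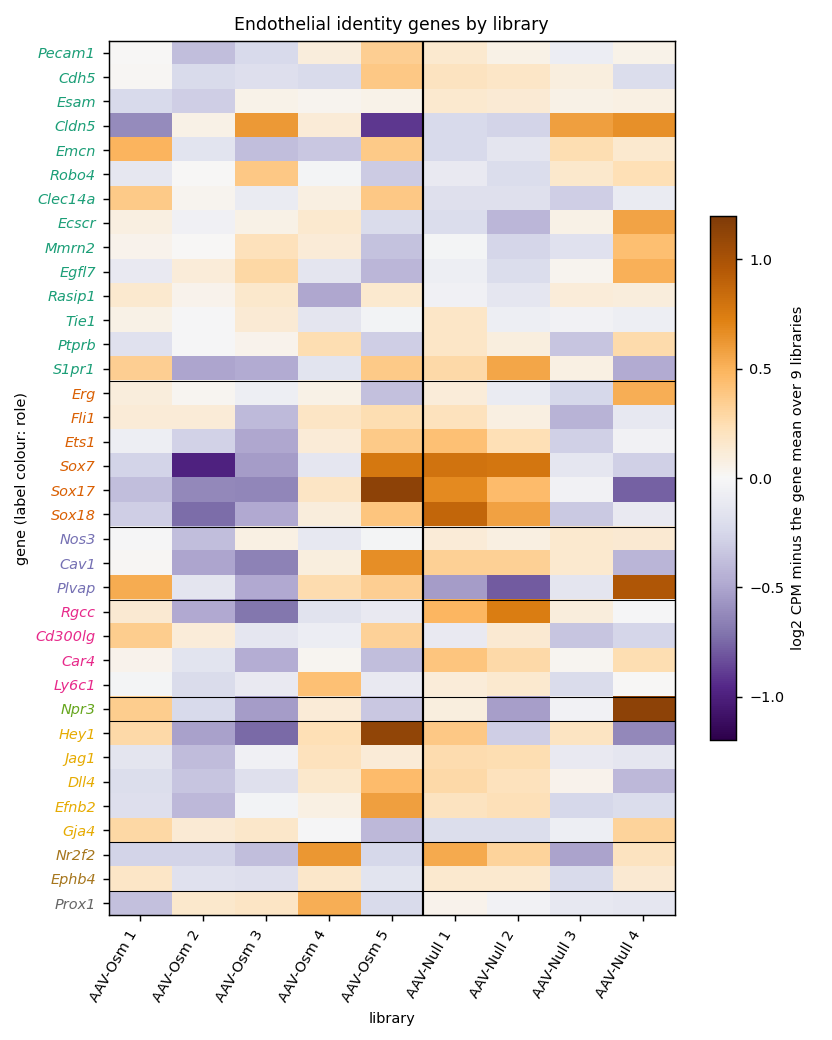
Log2 CPM of each of the 36 endothelial identity genes minus that gene's mean over the 9 libraries (colour), by library (columns, AAV-Osm left of the line) and gene (rows, label colour by role). Sox7, Sox17, Sox18 and Cav1 are high in AAV-Osm 5, AAV-Null 1 and AAV-Null 2, and Npr3 and Plvap are high in AAV-Null 4.

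Other genes of vessels were read through named lists, described by counts. The lists were written with earlier results of these data known, so their counts and medians are no test of a list. Of all genes 2.89% were higher and 3.09% lower at an unadjusted edgeR p under 0.05. In the list of microvascular transport genes 23 were tested, of which 0 rose, 1 fell (Aqp1) and 22 did not pass, and at an unadjusted p under 0.05 there were 6 lower and 1 higher. The list's median was -0.20. Aqp1, the water channel of capillary endothelium, had 194, 204, 218, 216 and 200.4 CPM in AAV-Osm 1 to 5, against 378, 354, 331 and 361 CPM in AAV-Null 1 to 4. Every AAV-Osm library lay far below every AAV-Null library (log2 fold change -0.79, standard error 0.11, edgeR adjusted p = 0.0245), and the call held in 13 of 21 alternatives. Gpihbp1, which anchors lipoprotein lipase on capillary endothelium, averaged 72.4 ± 12.9 CPM in AAV-Osm and 108 ± 28.8 CPM in AAV-Null hearts (log2 fold change -0.58, standard error 0.18, edgeR adjusted p = 0.579). Timp4, a metalloproteinase inhibitor, was at -1.07 (standard error 0.29, edgeR adjusted p = 0.475), Tcf15, a helix-loop-helix factor of heart capillaries, at -0.78 (standard error 0.25, edgeR adjusted p = 0.579) and Btnl9, a butyrophilin-like capillary gene, at 0.52 (standard error 0.20, edgeR adjusted p = 0.740).

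Among 14 genes of venous and activated endothelium 1 rose, Selp, and 1 fell, Aqp1 again. Selp, the P-selectin that catches leukocytes, stood at 0.897 to 2.37 CPM in AAV-Osm and 0.251 to 0.538 CPM in AAV-Null libraries (log2 fold change 2.11, standard error 0.36, edgeR adjusted p = 0.0499), a call that held in 6 of 20 alternatives. All 13192 genes of the table stood above 0.5 CPM in at least 4 libraries. Selp reached that level only with AAV-Osm libraries, where it was high. If genes were kept in the table by such a level, its call is not free of that choice. The second pan-endothelial list (34 genes tested) had 0 past the threshold in edgeR and a median of -0.12. At an unadjusted edgeR p under 0.05 stood 5 of its genes, all lower, beside 3.09% of all genes lower. Its smallest p-values belonged to Bcl6b, a transcriptional repressor, at -0.55 (standard error 0.15, edgeR adjusted p = 0.468), and Icam2, an adhesion molecule, at -0.46 (standard error 0.16, edgeR adjusted p = 0.622).

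In the list of VEGF and angiopoietin signalling 0 of 23 passed, with 3 at an unadjusted p under 0.05. The smallest p were those of Angpt2, an angiopoietin released by endothelium, at -0.66 (standard error 0.21, edgeR adjusted p = 0.574), and Esm1, a marker of sprouting tip cells, at 1.22 (standard error 0.38, edgeR adjusted p = 0.575). Esm1, like Selp, lay near the floor of the table, at 0.351 and 0.453 CPM in AAV-Null 1 and 2. Of 18 Notch pathway genes 0 passed and 2 had an unadjusted p under 0.05, the Notch target Heyl at -0.56 (standard error 0.13, edgeR adjusted p = 0.288) and Sema3g, an arterial semaphorin, at 0.37 (standard error 0.14, edgeR adjusted p = 0.738). Flow-responsive genes gave 0 of 17 and 2 at an unadjusted p under 0.05: Klf4, a factor induced by shear stress, at -0.57 (standard error 0.23, edgeR adjusted p = 0.773) and Klf6 at -0.29 (standard error 0.13, edgeR adjusted p = 0.802).

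The 3 lists left each had 0 genes past the threshold and 1 at an unadjusted p under 0.05. Endocardial genes (13 tested) had Bmp6, a bone morphogenetic protein, at -0.54 (standard error 0.22, edgeR adjusted p = 0.755) and Cdh11, a cadherin, at -0.60 (standard error 0.31, edgeR adjusted p = 0.883). Lymphatic genes (15 tested) had Lyve1, a hyaluronan receptor of lymphatic endothelium and some macrophages, at -0.73 (standard error 0.22, edgeR adjusted p = 0.518) and Sema3d at -0.69 (standard error 0.32, edgeR adjusted p = 0.833). Partners of the ETS and SOX families (25 tested) had Sox9 at -0.58 (standard error 0.23, edgeR adjusted p = 0.768) and Etv5 at 0.36 (standard error 0.18, edgeR adjusted p = 0.874).

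**Figure D4:**
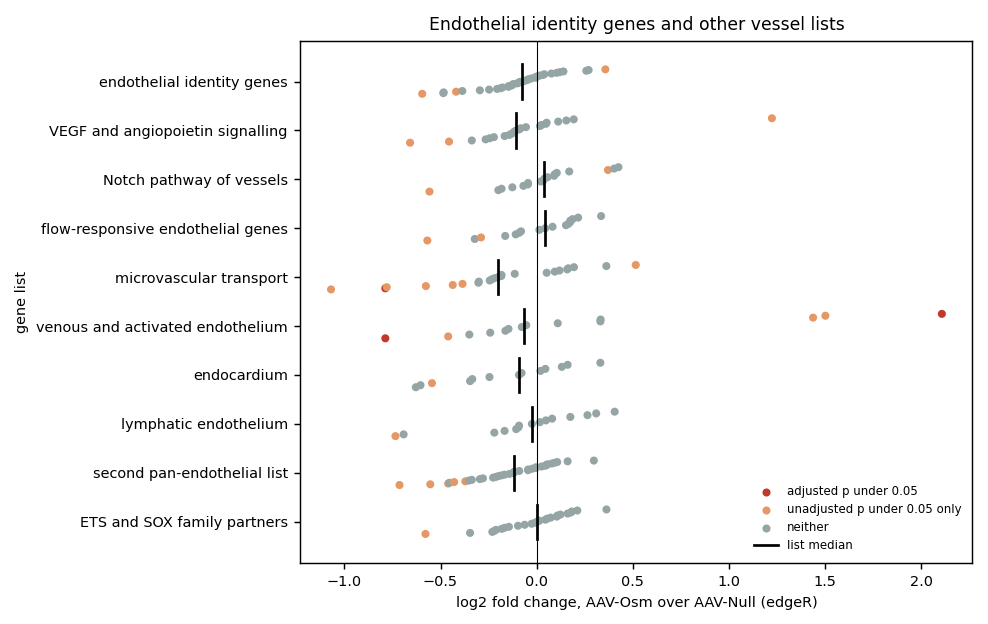
Log2 fold change, AAV-Osm over AAV-Null (x axis, edgeR), of each of the endothelial identity genes and of the genes of 9 other vessel lists (rows); colours mark an adjusted p under 0.05, an unadjusted p under 0.05 alone, or neither, and black bars are list medians. Aqp1 at -0.79, in 2 of the rows, and Selp at 2.11 pass the adjusted threshold, and none of the endothelial identity genes does. Selp lies near the floor of the table in AAV-Null libraries.

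Markers of other cell types were summed beside these results. Mesothelial markers (7 of 7 in the table) summed to 10.5 to 48.6 CPM in AAV-Osm and 46.4 to 143 CPM in AAV-Null libraries, and all 7 had a negative log2 fold change. Fibroblast markers (14 of 14) summed to 2046 to 3114 CPM in AAV-Osm and 2526 to 3868 CPM in AAV-Null libraries, with 13 of 14 negative. Macrophage markers (11 of 11) summed to 479.6 to 675 CPM in AAV-Osm and 453 to 958 CPM in AAV-Null libraries, with 7 of 11 negative. These 3 sums were highest in AAV-Null 4. So were the sum over all members, at 1756 CPM, and that of the second pan-endothelial list, at 1902 CPM. Npr3 and Plvap were among the 9 members that peaked there. Pericyte markers (10 of 10) summed to 349 to 407 CPM in AAV-Osm and 365 to 401 CPM in AAV-Null libraries, with 5 of 10 negative. Smooth muscle markers (8 of 8) summed to 238 to 302 CPM in AAV-Osm and 244 to 388 CPM in AAV-Null libraries, and all 8 were negative. Liver-type markers (15 of 15) summed to 65.1 to 154 CPM in AAV-Osm and 54.2 to 311 CPM in AAV-Null libraries, with 13 of 15 negative. Of the 16 heart muscle markers 5 were negative and 11 positive. The part of these markers in the members' values was not tested.

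**Figure D5:**
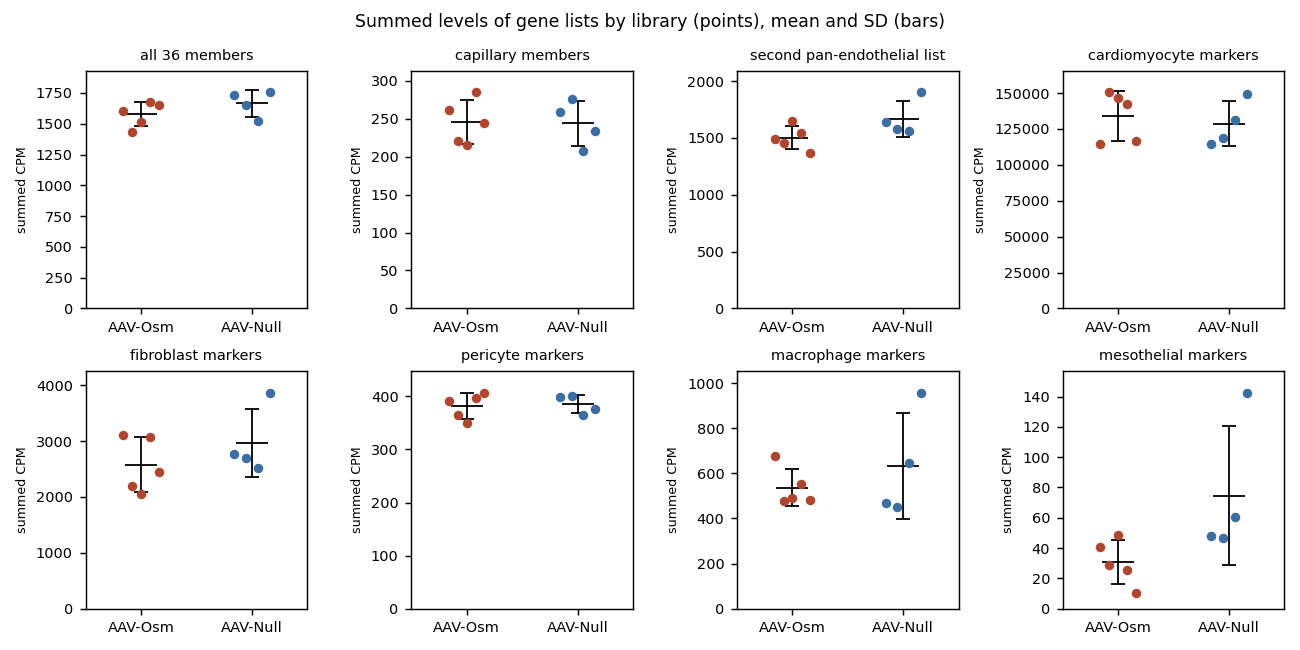
Summed CPM (y axis, from 0) of all 36 endothelial identity genes, their capillary members, the second pan-endothelial list and markers of other cell types, in AAV-Osm (left, 5 points) and AAV-Null (right, 4 points) libraries; bars give mean and SD. The groups overlap in every panel. AAV-Null 4 is the highest point for all 36 genes, for the second pan-endothelial list and for fibroblast, macrophage and mesothelial markers.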

How the data were processed

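Per the labels' protocols, libraries enriched for mRNA were made from heart apex RNA and read as paired ends of 75 bases. The submitters' processing notes name STAR 2.5.2b, featureCounts, Subread 1.5.1 and mouse build mm10. The annotation, the strand setting and the handling of multi-mapping reads were not found in these notes or the labels. The table the authors deposited holds raw counts for 13192 genes, with gene positions and summed exon lengths, and 4141 blank lines that were left out. All 13192 genes stood above 0.5 CPM in at least 4 libraries.

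Libraries were numbered in accession order, as names only. Counts were TMM-scaled and tested with edgeR 4.0.16 in R 4.3.3 (robust quasi-likelihood F test, two-sided, group as the only term, Benjamini-Hochberg over all genes; filterByExpr removed 0 genes), with 95% intervals from the same fit. The test was first run on simulated data. Alternatives used other scalings and filters, limma 3.58.1, DESeq2 1.42.0, sva 3.50.0 and libraries left out. The count of members by direction under the second pan-endothelial scaling was added after seeing the data.

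Members and lists were chosen with earlier results of these data known. Full values are given for members with an unadjusted p under 0.05 or without overlap, for the most abundant member of any other role, and for Pecam1 and Cdh5. From other lists, genes past the threshold or else the pair with the smallest p are named. Other members with single values, and Gpihbp1, Timp4, Tcf15 and Btnl9, were picked after their values were seen. Promoter windows came from RefSeq (GRCm38.p6), and exon overlaps from GENCODE M21 on the same assembly.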

Additional observations from a re-analysis of the deposited data

Results flagged for a closer look

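Within each group, the gap between the highest or lowest library and its nearest neighbour was set against the range of the group (Dixon's 95% critical values). Of 90 such checks, on the 36 genes and 9 sums over roles, 6 held a library past the critical value. Chance gives about 1 in 20, so this count lies near that share and is no result about the libraries. The checks are not all separate, since the endocardial and lymphatic sums are Npr3 and Prox1 alone. AAV-Osm 4, the library with the lowest total count, accounted for 3 of them: Rasip1, a regulator of junctions, was low at 19.4 CPM (28.2 to 30.4 CPM in the other AAV-Osm libraries), Ly6c1 was high at 189 CPM (120.2 to 139 CPM in the others), and Nr2f2 was high at 25.1 CPM (12.4 to 13.6 CPM in the others). Fli1 was low in AAV-Osm 3 at 16.7 CPM (23.9 to 26.4 CPM in the other AAV-Osm libraries). Tie1 was high in AAV-Null 1 at 91.1 CPM (76.9 to 78.8 CPM in the other AAV-Null libraries), and Ephb4 was low in AAV-Null 3 at 58.6 CPM (75.5 to 76.1 CPM in the others). What set these libraries apart was not tested.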

How the results depend on the processing

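No paired analysis was possible because the labels carry no replicate numbers. Members called lower stayed at 0 in 20 of 21 alternatives and were 1 (Rgcc) in limma-voom with quality weights, and members called higher were 0 in all 21. The alternatives are not all separate checks. The fit with no filter repeats the main edgeR fit, since filterByExpr removed 0 genes. The fit without robust dispersions keeps the fold changes of the main fit. Over all genes, 11 higher and 5 lower became 24 and 29 with DESeq2, 79 and 91 with quality weights, 3 and 2 with a mean of at least 5 CPM, and 20 and 24 with 1 surrogate variable. With 1 or 2 libraries out there were 4 to 12 higher and 0 to 6 lower (10 higher and 3 lower without AAV-Null 4 and AAV-Osm 5), and the members' median was -0.11 to -0.023. Scaling to the second pan-endothelial list, which by construction sets that list level between libraries and shifts all genes, gave medians of 0.074 for the members and 0.16 for all genes. Pecam1, Cdh5 and Ephb4 stood at 0.10, 0.048 and 0.063 there, below that median of all genes. In all 17 of 36 members changed sign in at least 1 fit with 1 library left out, Sox17, Hey1 and Cav1 among them. With 1 or 2 out Pecam1 ran from -0.16 to 0.023 (positive without AAV-Osm 2) and Npr3 from -0.58 to 0.11: 0.051 without AAV-Null 4, 0.10 without AAV-Null 3 and 4, and 0.11 without AAV-Null 4 and AAV-Osm 5. Quality weights put Npr3 at 0.018; the cause was not tested. At an unadjusted p under 0.05 there were 1 to 14 members lower and 0 to 2 higher over the alternatives. The 14 came from quality weights, and the share of all genes under that p was taken for the main fit alone. Standard errors of the members' log2 fold changes, 0.12 to 0.39, limit the size of change that could be called.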
